A study of Homo sapiens with 12 samples.

Results

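The 40 genes described here encode the machinery that copies DNA and the enzymes that supply its building blocks. They were listed by function: 6 subunits of the MCM helicase, 4 origin recognition and licensing factors, 5 partners that switch the helicase on, 6 clamp and clamp loader subunits, 8 DNA polymerase and primase subunits, 3 subunits of the single-strand binding complex RPA, 2 enzymes that join Okazaki fragments, 4 enzymes of deoxynucleotide supply and 2 regulators of S phase. The rule that lists them uses no measured value, though earlier results of these data were known when it was drawn up. All 40 were found among the 26357 gene names shared by the 4 expression tables of the study, and all 40 were among the 12066 genes that passed the filter on low values. Messenger RNA was sequenced from HMLE cells, human mammary epithelial cells made immortal in culture, in 4 groups with 3 biological replicates in each. HMLE-Twist cells carry the transcription factor TWIST1 and are labelled with the EMT phenotype (epithelial to mesenchymal transition), while HMLE-pBp cells carry the control vector and are labelled nonEMT. Both lines were given 0.2 uM salinomycin, an ionophore that carries potassium across membranes, or DMSO as the mock, for 24 h. Whether a line is a single clone, and what drives TWIST1 in it, could not be read from the labels.

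The labels were first set against the data. TWIST1 stood at an FPKM (fragments per kilobase of transcript, scaled for library size) of 499 to 1174 in the 6 HMLE-Twist libraries and of 1.81 to 2.52 in the 6 HMLE-pBp libraries. The 6 epithelial markers summed to an FPKM of 26.07 to 33.28 in HMLE-Twist and of 2288.39 to 2981.5 in HMLE-pBp. The 6 mesenchymal markers summed to 2860.9 to 4149.51 in HMLE-Twist and to 469.24 to 598.08 in HMLE-pBp, so both lines matched their labels. Of 5 leukocyte markers, CD14 stood at 6.21 to 28.9 in the 6 HMLE-pBp libraries, where PTPRC and LYZ were listed at 0, and all 5 summed to at most 1.79 in any HMLE-Twist library. The 5 endothelial markers summed to at most 1.84 in any library. Recovered reads per library ran from 17.91 to 26.73 megareads. The share of cells in S phase was not measured, and in bulk RNA fewer cells in S phase and less RNA per cell cannot be told apart.

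Replication starts where the origin recognition complex, with CDC6 and CDT1, loads the ring of MCM subunits onto DNA in G1. CDC45, the GINS complex and MCM10 turn that ring into an active helicase, RPA coats the single strands it exposes, primase with DNA polymerase alpha lays down primers, and polymerases delta and epsilon extend them while held by PCNA, a sliding clamp that RFC loads. Most of these genes are transcribed in a burst at the boundary of G1 and S under E2F transcription factors, which is why they serve as markers of cycling cells in culture.

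Promoters were searched for 4 E2F-type words of 8 letters (TTTCCCGC, TTTGGCGC, TTTCGCGC and TTTGCCGC, on either strand) in the window from 250 bases before to 50 after the transcription start, with RefSeq's sequences on GRCh38.p14. The table held 34 of the 40 genes and had no entry for MCM4, MCM5, GINS4, POLD3, RPA2 and RPA3. Of these 34 promoters 18 (52.9%) held such a word, against 4.0% of all 27305 genes in the promoter table and 6.9% of the 9008 tested genes matched there. Of the 57 further replication genes described at the end, 17 of the 50 matched (34.0%) held one. The CCAAT box, on either strand, occurred in 21 of 34 (61.8%), against 39.7% of all genes in the table. It occurred in 43.6% of the tested genes matched there and in 54.0% of the further replication genes matched. A match of letters is a description and no measured binding. The 6 stretches below were picked among genes that hold a word and fell with salinomycin in at least 1 line. That each holds a word is therefore no result. PRIM1, PRIM2, RFC5, RPA1 and RRM1, which also fell in HMLE-Twist, were matched, held no word and are not shown. The same holds for MCM10 and CDC45, which fell in HMLE-pBp. Each stretch is given as 100 bases read 5′ to 3′ on the gene's own strand, with the words in capitals. Capital runs join where words overlap, as in MCM6.
MCM6 (chr2:135876514-135876613, minus strand): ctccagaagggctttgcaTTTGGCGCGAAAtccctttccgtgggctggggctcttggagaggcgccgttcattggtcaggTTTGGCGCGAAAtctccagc
PCNA (chr20:5126623-5126722, minus strand): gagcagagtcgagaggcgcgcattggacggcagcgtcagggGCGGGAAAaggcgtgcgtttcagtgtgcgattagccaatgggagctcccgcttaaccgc
POLA2 (chr11:65261862-65261961, plus strand): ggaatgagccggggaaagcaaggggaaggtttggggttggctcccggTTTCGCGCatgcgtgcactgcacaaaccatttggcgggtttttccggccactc
RFC3 (chr13:33818049-33818148, plus strand): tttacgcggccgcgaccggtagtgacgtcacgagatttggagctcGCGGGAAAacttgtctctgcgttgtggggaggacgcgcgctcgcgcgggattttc
TYMS (chr18:657553-657652, plus strand): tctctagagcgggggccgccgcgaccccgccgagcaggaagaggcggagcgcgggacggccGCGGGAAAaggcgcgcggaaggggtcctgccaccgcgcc
E2F1 (chr20:33686386-33686485, minus strand): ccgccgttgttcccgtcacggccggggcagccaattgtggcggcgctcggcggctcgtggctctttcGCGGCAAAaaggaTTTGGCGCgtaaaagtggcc
The MCM6 stretch holds 4 words in 2 places, since a word on the gene's strand and one on the opposite strand overlap at each. PCNA, RFC3 and TYMS hold 1 word each, TTTCCCGC on the opposite strand, which reads GCGGGAAA here. POLA2 holds TTTCGCGC on its own strand, and E2F1, itself the family's best known member, holds TTTGCCGC on the opposite strand and TTTGGCGC on its own.

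All 40 genes were expressed in every library. Mean FPKM in HMLE-Twist mock ran from 12.1 for GINS3, a subunit of the GINS complex, to 233 for PCNA, and in HMLE-pBp salinomycin from 7.57 to 162 for the same 2 genes. The recovered transcript length behind FPKM lay more than 5% from any reference transcript for 14 of the 40 genes, so their levels against other genes are less certain. Length and mock reads were recovered together and salinomycin reads apart. Mock reads off by a whole factor would therefore also shift a gene's change with salinomycin. The 40 genes varied little within a group: the median SD within groups was 0.11 on the log2(FPKM + 1) scale, against 0.14 over all genes tested.

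**Figure D1:**
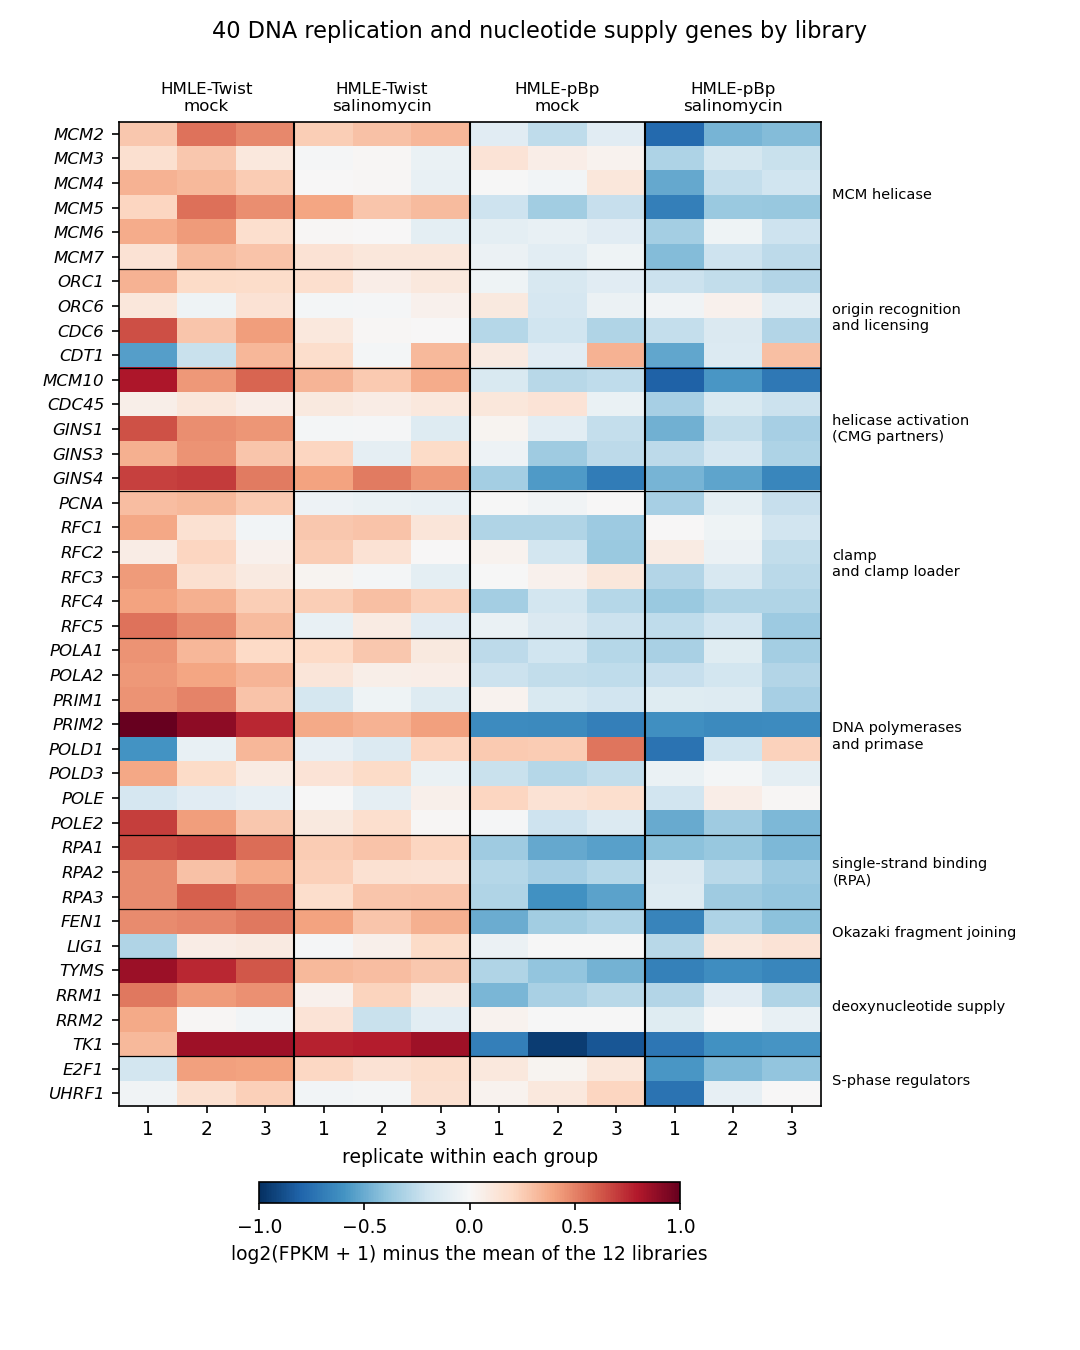
Expression of the 40 genes (rows, in blocks by role) in the 12 libraries (columns, 3 replicates in each of 4 groups), as log2(FPKM + 1) minus the mean of the 12 libraries; red is above that mean and blue below. The 3 HMLE-Twist mock columns are red for most genes, and the HMLE-pBp salinomycin columns are blue for most.

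The lines differed first. In mock-treated cells 29 of the 40 genes were higher in HMLE-Twist than in HMLE-pBp and 1 was lower, at an adjusted p under 0.05 in the limma fit, where 36.1% of all genes tested were higher and 37.2% were lower. The median log2 fold change of the 40 was 0.54. After salinomycin 27 were higher and none was lower, against a background of 31.4% higher and 32% lower, and the median was 0.32. None was lower at an unadjusted p under 0.05 or with voom weights either. The shares of all genes at that p, or called with voom weights, are not reported here. The comparison by line rests on cells that also differ in cell type markers, as given above, and the part of that state in these values was not tested. Scaling by total reads instead of median ratios moved the median log2 difference of all genes from -0.0021 to 0.1296 under mock and from 0.0114 to 0.1396 under salinomycin. With that scaling 33 of the 40 were higher in each comparison, where 43% of all genes were higher under mock and 40.3% under salinomycin. None of the 40 was then lower at an adjusted p under 0.05 (background 31.7% and 26.2%).

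**Figure D2:**
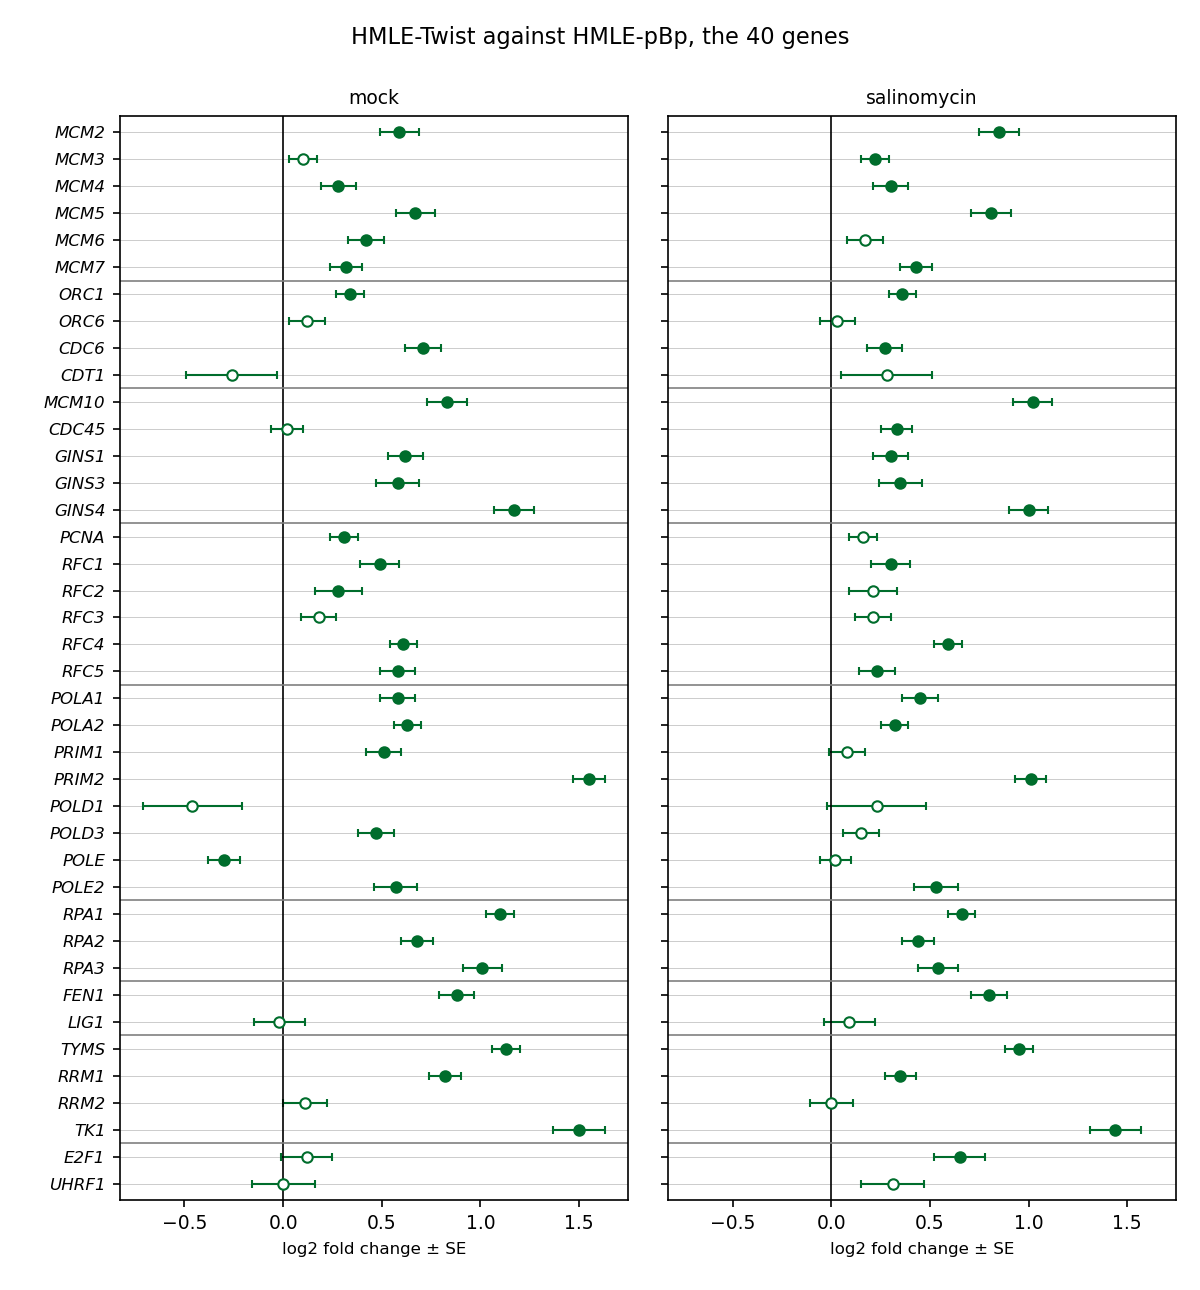
Log2 fold change (± SE) of HMLE-Twist against HMLE-pBp for the 40 genes under mock (left) and salinomycin (right); filled points passed an adjusted p of 0.05. Under mock PRIM2 and TK1 lie farthest to the right, at 1.55 and 1.5, and POLE at -0.30 is the filled point left of 0.

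Part of the machinery was lower after salinomycin in both lines. In HMLE-Twist 14 of the 40 genes fell (35%), against a background of 13.5%, and none rose, where 12.9% of all genes did; none rose at an unadjusted p under 0.05 or with voom weights either. The median log2 fold change of the 40 was -0.18 and that of all genes was -0.01. In HMLE-pBp 9 of the 40 fell (22.5%), against a background of 9.4%. None rose there, where 9.72% of all genes did. RFC1 alone was higher at an unadjusted p under 0.05, and with voom weights none rose. The shares of all genes at that p, or called with voom weights, are not reported here for either line. The median log2 fold change of the 40 in HMLE-pBp was -0.10. The 3 treated libraries lay wholly below the 3 mock libraries for 21 of the 40 genes in HMLE-Twist, where 21% of all genes did so, and for 17 in HMLE-pBp, where 21.2% did. They lay wholly above for none of the 40 in HMLE-Twist (19.1% of all genes) and for 2 in HMLE-pBp, RFC1 and POLD3 (20.3% of all genes).

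With the replicate number as a block within each line, the fall took in 19 genes in HMLE-Twist (background 20.8%), where none rose (background 19.7%), and 13 in HMLE-pBp (background 19.3%), and 2 genes, RFC1 and RPA3, rose in HMLE-pBp (background 17.3%). No call made without the block was lost with it. The HMLE-pBp count moved when single libraries were left out. Such fits have fewer libraries for every gene, and the share of all genes they call is not reported here. The count was 4, 5 and 4 without mock replicate 1, 2 and 3 in turn, and 2 without salinomycin replicate 1. In that salinomycin library 11 of the 40 genes lay above their group's mean, and in salinomycin replicate 2 of HMLE-pBp 36 did. HMLE-pBp mock replicate 2 also had 11 above, and HMLE-Twist mock replicate 3 had 12. The share of all genes above their group's mean is not reported here.

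Sums of the marker lists also differed between mock and treated libraries, and their part in these values was not tested. In HMLE-pBp the summed epithelial markers went from between 2552.64 and 2981.5 in mock to between 2288.39 and 2415.02 with salinomycin, and the mesenchymal sum from between 469.24 and 497.38 to between 514.85 and 598.08. The members of each list did not go one way. Mean FPKM of KRT14 went from 874 to 628 and that of EPCAM from 243 to 157, KRT5 and KRT18 were lower by less, and ESRP1 went from 33.1 to 47.5 and CDH1 from 166 to 179. Of the mesenchymal list in that line VIM, SPARC and ZEB1 had higher means after treatment, and FN1, CDH2 and PDGFRB lower ones. In HMLE-Twist the mesenchymal sum went from between 2860.9 and 3151.47 to between 3854.3 and 4149.51. That sum was carried by VIM (mean 1892 to 2382), FN1 (770 to 1173) and SPARC (278 to 405), while PDGFRB went from 39.5 to 23.6, ZEB1 from 23.6 to 19.3 and CDH2 from 13.7 to 13.8. The leukocyte sum in HMLE-pBp, 18.92 to 28.9 in mock and 6.21 to 15.13 with salinomycin, was nearly all CD14.

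**Figure D3:**
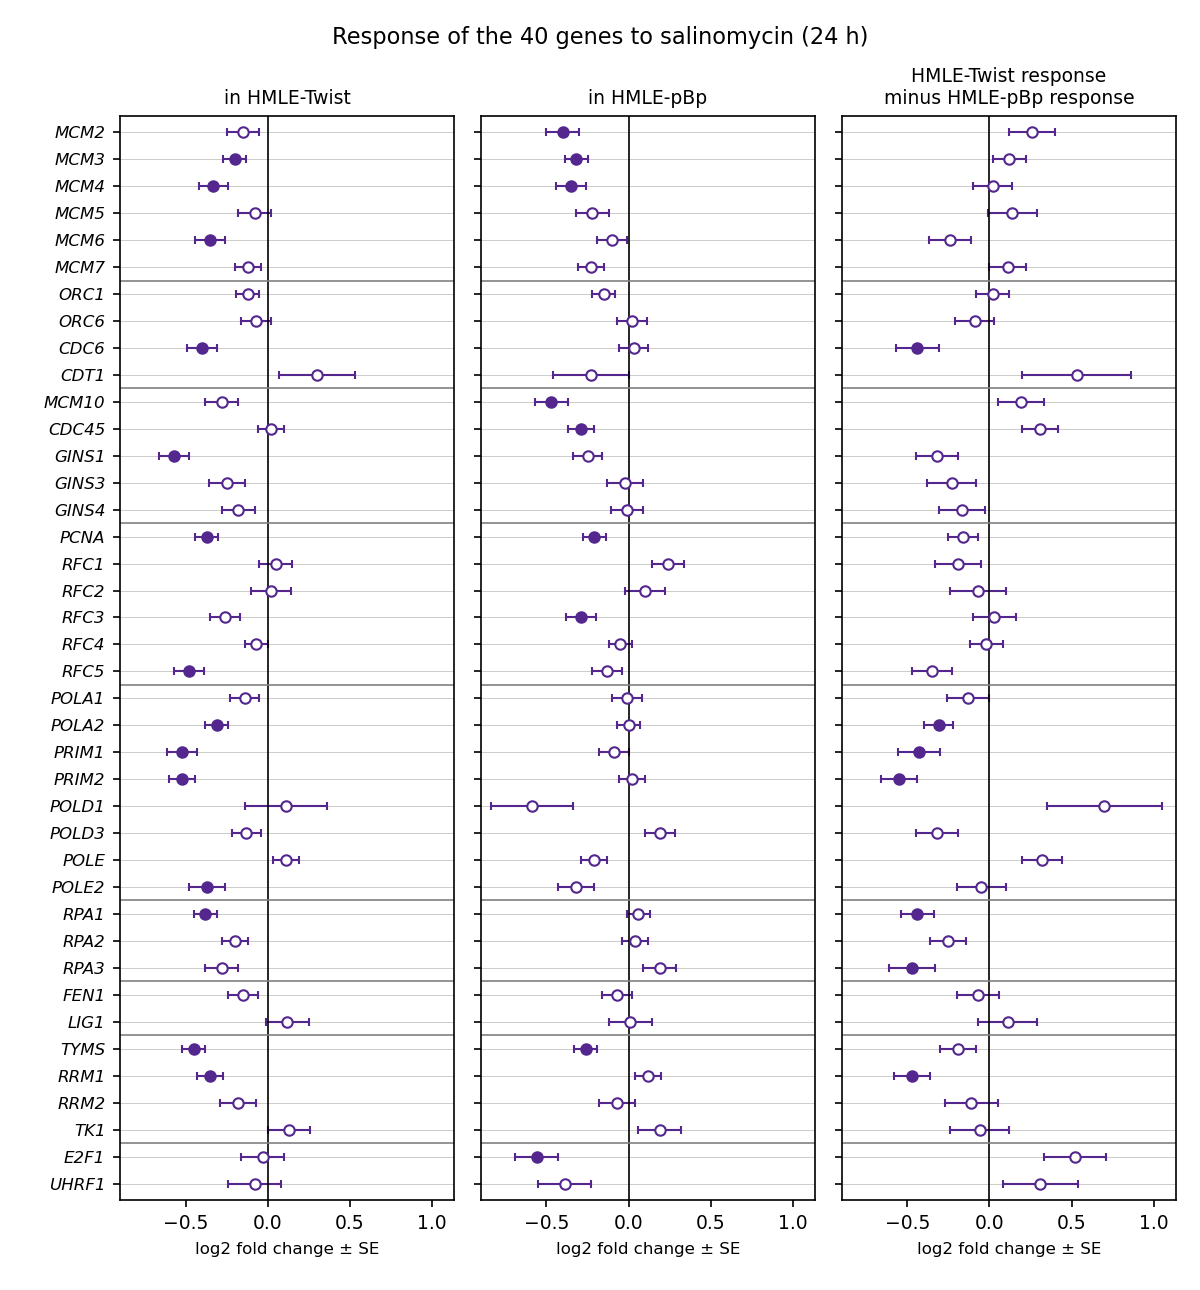
Log2 fold change (± SE) of the 40 genes with salinomycin in HMLE-Twist (left) and HMLE-pBp (middle), and the response in HMLE-Twist minus that in HMLE-pBp (right); filled points passed an adjusted p of 0.05. All filled points, 14, 9 and 7 in the 3 panels, lie below 0.

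Among the 6 subunits of the MCM ring, 3 fell in HMLE-Twist (MCM3, MCM4 and MCM6) and 3 in HMLE-pBp (MCM2, MCM3 and MCM4). For the counts by role, here and below, 13.5% of all genes fell in HMLE-Twist and 9.4% in HMLE-pBp. Of all genes, 36.1% were higher in HMLE-Twist under mock and 31.4% under salinomycin. FPKM of MCM2 was 89.3, 108 and 103 under mock and 87.6, 90.5 and 93 with salinomycin in HMLE-Twist, and 68.1, 61.8 and 67.9 under mock and 42.6, 53 and 54.2 with salinomycin in HMLE-pBp. The HMLE-pBp salinomycin values were the lowest of the 12 and did not overlap those of the mock, while the HMLE-Twist groups overlapped. The log2 fold change of MCM2 was -0.40 ± 0.10 (SE) in HMLE-pBp, with an adjusted p of 0.0178 (up to 0.0731 without mock replicate 1 or 3 or salinomycin replicate 1, each of which ended the call), and -0.15 ± 0.10 in HMLE-Twist, with an adjusted p of 0.327. These responses were not shown to differ (difference 0.26, 95% interval -0.06 to 0.57, adjusted p = 0.242).

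FPKM of MCM4, which can be followed in both lines, was 88.9, 87.3 and 83.3 under mock and 69.7, 70.3 and 66.1 with salinomycin in HMLE-Twist, and 69.2, 68.4 and 75.2 under mock and 48.4, 58.7 and 60.3 with salinomycin in HMLE-pBp. In each line every treated library lay below every mock library. MCM4 changed by -0.33 ± 0.09 in HMLE-Twist (adjusted p = 0.0147, and 0.0629 without HMLE-Twist salinomycin replicate 3) and by -0.35 ± 0.09 in HMLE-pBp (adjusted p = 0.0171, a call lost without mock replicate 3, without salinomycin replicate 1 or with that line fitted alone, at up to 0.0811). MCM3 also fell in both, at -0.20 ± 0.07 (adjusted p = 0.0488, range over the alternatives 0.0264 to 0.165) and -0.32 ± 0.07 (adjusted p = 0.00817). MCM6, whose promoter holds the 2 pairs of overlapping words shown above, went from 57.7, 60.1 and 50 in HMLE-Twist mock to 44.8, 44.6 and 41.4 with salinomycin, a change of -0.35 ± 0.09 (adjusted p = 0.0146, a call lost without HMLE-Twist mock replicate 2 or salinomycin replicate 3, at up to 0.0659). In HMLE-pBp its change was -0.10 ± 0.09 (adjusted p = 0.451). MCM5 and MCM7 did not pass the test in either line without the block; with the block, MCM7 fell in HMLE-pBp (-0.23, adjusted p = 0.0331, range over the alternatives 0.024 to 0.184). Between the lines, 5 of the 6 were higher in HMLE-Twist under mock and the remaining subunit, MCM3, was not (0.10 ± 0.07, adjusted p = 0.216). MCM5 showed the widest gap of the 6 under mock, 0.67 ± 0.10, and MCM2 and MCM5 under salinomycin, 0.85 ± 0.10 and 0.81 ± 0.10.

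Of the 4 genes of origin recognition and licensing, only CDC6 passed a salinomycin test. CDC6 is the ATPase that helps load the MCM ring. Its FPKM was 57.8, 44.6 and 49.3 under mock and 39.6, 37 and 36.7 with salinomycin in HMLE-Twist, and 29.9, 31.8 and 29.6 under mock and 30.9, 33 and 29.7 with salinomycin in HMLE-pBp. The 3 HMLE-Twist mock libraries were the highest of the 12, the treated HMLE-Twist libraries came next, and the 2 HMLE-pBp groups overlapped. CDC6 fell by 0.40 ± 0.09 on the log2 scale in HMLE-Twist (adjusted p = 0.00697) and stood at 0.03 ± 0.09 in HMLE-pBp (adjusted p = 0.827), and the difference of -0.44 ± 0.13 passed the test (adjusted p = 0.0456, range over the alternatives 0.00976 to 0.111). The line gap in CDC6 was 0.71 ± 0.09 under mock and 0.27 ± 0.09 under salinomycin. ORC1, a subunit of the origin recognition complex, was 0.34 ± 0.07 higher in HMLE-Twist under mock and 0.36 ± 0.07 under salinomycin, and with salinomycin it differed from mock by -0.12 ± 0.07 (HMLE-Twist) and -0.15 ± 0.07 (HMLE-pBp), neither past the test. ORC6 passed no test in any of the 5 comparisons, nor did CDT1, whose libraries are described further on.

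Of the 5 partners that switch the helicase on, GINS1 fell in HMLE-Twist, and MCM10 and CDC45 fell in HMLE-pBp. GINS1 gave the deepest fall of the 40 in HMLE-Twist. Its FPKM was 28.4, 25 and 24.7 under mock and 17.6, 17.7 and 16.3 with salinomycin in HMLE-Twist, and 18.2, 16.5 and 15 under mock and 12.5, 14.9 and 14 with salinomycin in HMLE-pBp. In HMLE-Twist the mock libraries lay at 24.7 or above and the treated ones at 17.7 or below. GINS1 changed there by -0.57 ± 0.09 (adjusted p = 0.00109), and by -0.25 ± 0.09 in HMLE-pBp (adjusted p = 0.0863). The difference of the responses, -0.32 ± 0.13, did not pass (adjusted p = 0.126). MCM10, which binds the loaded ring and is needed to fire it, had an FPKM of 29.9, 22.8 and 25.4 under mock and 21.4, 20.2 and 21.8 with salinomycin in HMLE-Twist, and 14.9, 13.6 and 13.8 under mock and 9.07, 10.8 and 9.79 with salinomycin in HMLE-pBp. The treated HMLE-pBp libraries were the lowest of the 12 and the HMLE-Twist mock libraries the highest. MCM10 fell by 0.47 ± 0.10 in HMLE-pBp (adjusted p = 0.00758), and stood at -0.28 ± 0.10 in HMLE-Twist (adjusted p = 0.0571, and 0.0304 with the replicate block, range over the alternatives 0.0249 to 0.159).

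CDC45 is the third part of the active helicase beside MCM and GINS. Its FPKM was 35.8, 37.1 and 35.9 under mock and 36.8, 36.2 and 37 with salinomycin in HMLE-Twist, and 37.2, 37.7 and 32.7 under mock and 27.1, 30.7 and 29.4 with salinomycin in HMLE-pBp. The treated HMLE-pBp libraries alone stood below the other 9. CDC45 fell by 0.29 ± 0.08 in HMLE-pBp (adjusted p = 0.0197) and stood at 0.02 ± 0.08 in HMLE-Twist (95% interval -0.15 to 0.18). The HMLE-pBp call was lost in 4 of 22 alternatives, at an adjusted p of up to 0.0843: that line fitted alone, and leaving out its mock replicate 1, mock replicate 2 or salinomycin replicate 1. The difference of 0.31 ± 0.11 reached an adjusted p of 0.0756, and of 0.0405 with the replicate block (range over the alternatives 0.0371 to 0.171). GINS4 had an FPKM of 23.4, 23.7 and 20.8 under mock and 19.1, 20.8 and 19.5 with salinomycin in HMLE-Twist, and 11, 9.26 and 8.35 under mock and 10, 9.57 and 8.69 with salinomycin in HMLE-pBp. Its HMLE-Twist libraries all stood at 19.1 or above and its HMLE-pBp libraries at 11 or below, a gap of 1.17 ± 0.10 under mock (adjusted p = 3.9e-07) and 1.00 ± 0.10 under salinomycin (adjusted p = 2.29e-06). Neither GINS3 nor GINS4 passed a salinomycin test. GINS3 was 0.58 ± 0.11 higher in HMLE-Twist under mock and MCM10 was 0.83 ± 0.10 higher.

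Of the 6 clamp and clamp loader genes, PCNA and RFC5 fell in HMLE-Twist and PCNA and RFC3 in HMLE-pBp. FPKM of PCNA was 234, 237 and 227 under mock and 182, 180 and 179 with salinomycin in HMLE-Twist, and 188, 184 and 189 under mock and 150, 176 and 161 with salinomycin in HMLE-pBp. In both lines the treated libraries lay below the mock libraries. PCNA fell by 0.37 ± 0.07 in HMLE-Twist (adjusted p = 0.00194) and by 0.21 ± 0.07 in HMLE-pBp (adjusted p = 0.0483, range over the alternatives 0.0259 to 0.165). RFC5 fell in HMLE-Twist, from 38.3, 36.3 and 32.6 to 24.6, 27.5 and 23.9, by 0.48 ± 0.09 (adjusted p = 0.00187). In HMLE-pBp it stood at 24.8, 23.4 and 22.2 and then 21.6, 22.6 and 20, groups that overlapped (-0.13 ± 0.09, adjusted p = 0.327). The difference for RFC5, -0.35 ± 0.12, passed with the replicate block only (adjusted p = 0.077 without it and 0.0238 with it, range over the alternatives 0.0174 to 0.182).

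RFC3, whose promoter holds GCGGGAAA, had an FPKM of 38.8, 32.2 and 30.5 under mock and 29.2, 28.2 and 26.7 with salinomycin in HMLE-Twist, and 28.5, 29.5 and 31 under mock and 23.2, 25.5 and 23.6 with salinomycin in HMLE-pBp. Its treated libraries lay below the mock libraries in each line, narrowly in HMLE-Twist. RFC3 changed by -0.29 ± 0.09 in HMLE-pBp (adjusted p = 0.0438, range over the alternatives 0.00923 to 0.152) and by -0.26 ± 0.09 in HMLE-Twist (adjusted p = 0.0552, and 0.0167 with the replicate block). RFC1, RFC2 and RFC4 passed no salinomycin test without the block. RFC1, the large subunit, stood at 0.24 ± 0.10 in HMLE-pBp, an adjusted p of 0.113 without the block and 0.0275 with it (range over the alternatives 0.0255 to 0.29). Under mock 5 of these 6 genes were higher in HMLE-Twist (background 36.1%), led by RFC4 at 0.61 ± 0.07. Under salinomycin 3 were (background 31.4%).

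Of the 8 polymerase and primase genes, 4 fell in HMLE-Twist (POLA2, PRIM1, PRIM2 and POLE2). None passed in HMLE-pBp, where 3 stood below 0 at an unadjusted p under 0.05 (POLD1, POLE and POLE2). The share of all genes at that p is not reported here. FPKM of PRIM2, the large primase subunit, was 48.7, 43.6 and 39.5 under mock and 30.2, 29.5 and 30.8 with salinomycin in HMLE-Twist, and 14.5, 14.4 and 13.9 under mock and 14.7, 14.4 and 14.5 with salinomycin in HMLE-pBp. The HMLE-Twist mock libraries were above all others, the treated HMLE-Twist libraries lay between, and the 6 HMLE-pBp libraries stayed between 13.9 and 14.7. PRIM2 fell by 0.52 ± 0.08 in HMLE-Twist (adjusted p = 0.000608) and stood at 0.02 ± 0.08 in HMLE-pBp (95% interval -0.15 to 0.20), a difference of -0.55 ± 0.11 (adjusted p = 0.00955). PRIM2 also had the widest gap between the lines under mock, 1.55 ± 0.08 or 2.93-fold (adjusted p = 3.19e-09), and 1.01 ± 0.08 under salinomycin. Its reads in the mock tables had to be taken as a multiple of the smallest whole numbers that fit, and its recovered length is more than 5% from the nearest reference transcript.

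PRIM1, the catalytic primase subunit, had an FPKM of 41.6, 43.1 and 37 under mock and 26.7, 29.4 and 27.6 with salinomycin in HMLE-Twist, and 31.1, 27.2 and 26.4 under mock and 27.7, 27.6 and 23.9 with salinomycin in HMLE-pBp. Only the HMLE-Twist mock libraries stood apart, and the treated HMLE-Twist libraries overlapped both HMLE-pBp groups. PRIM1 fell by 0.52 ± 0.09 in HMLE-Twist (adjusted p = 0.00158) and stood at -0.09 ± 0.09 in HMLE-pBp (adjusted p = 0.517), a difference of -0.43 ± 0.13 (adjusted p = 0.0475, range over the alternatives 0.0111 to 0.123). Its line gap went from 0.51 ± 0.09 under mock to 0.08 ± 0.09 under salinomycin, which did not pass (95% interval -0.12 to 0.28). POLA2, the second subunit of polymerase alpha, had an FPKM of 28.2, 27.3 and 26.3 under mock and 22.4, 21.5 and 21.6 with salinomycin in HMLE-Twist, and 17.6, 17.2 and 17.1 under mock and 17.4, 18 and 16.6 with salinomycin in HMLE-pBp. The order was HMLE-Twist mock, HMLE-Twist salinomycin and then both HMLE-pBp groups together, with little spread within any group. POLA2 fell by 0.31 ± 0.07 in HMLE-Twist (adjusted p = 0.00463), and the difference from HMLE-pBp was -0.31 ± 0.09 (adjusted p = 0.0475, range over the alternatives 0.0185 to 0.117).

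POLA1, the catalytic subunit of the same polymerase, stood at -0.14 ± 0.09 in HMLE-Twist and -0.01 ± 0.09 in HMLE-pBp, and neither passed. POLE2, the second subunit of polymerase epsilon, fell by 0.37 ± 0.11 in HMLE-Twist (adjusted p = 0.0228) and stood at -0.32 ± 0.11 in HMLE-pBp (adjusted p = 0.0521, and 0.0242 with the replicate block, range over the alternatives 0.0142 to 0.156). The HMLE-Twist call was lost in 4 of 22 alternatives, at up to 0.0911: that line fitted alone, and leaving out its mock replicate 1, salinomycin replicate 1 or salinomycin replicate 3. Its catalytic partner POLE was the 1 gene of the 40 lower in HMLE-Twist under mock. FPKM of POLE was 15.8, 16.5 and 16.8 under mock and 17.8, 16.7 and 18.6 with salinomycin in HMLE-Twist, and 20.9, 19.9 and 20.2 under mock and 15.5, 18.8 and 18 with salinomycin in HMLE-pBp. The 3 HMLE-pBp mock libraries were the highest of the 12, and the gap was -0.30 ± 0.08 under mock (adjusted p = 0.00572, and 0.0992 when scaled by total reads) and 0.02 ± 0.08 under salinomycin. POLD3, an accessory subunit of polymerase delta, passed no salinomycin test in either line, and its difference of -0.32 ± 0.13 passed only with the replicate block (adjusted p = 0.128 without it and 0.0386 with it, range over the alternatives 0.0386 to 0.293).

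All 3 subunits of RPA were higher in HMLE-Twist, and 1 of them fell there with salinomycin. FPKM of RPA1, the largest subunit, was 66.4, 67.4 and 62.1 under mock and 50, 51.3 and 48.7 with salinomycin in HMLE-Twist, and 32.4, 29 and 28.4 under mock and 31.3, 32 and 30.4 with salinomycin in HMLE-pBp. The 6 HMLE-pBp libraries overlapped at 28.4 to 32.4, the treated HMLE-Twist libraries stood at 48.7 to 51.3 and the HMLE-Twist mock libraries at 62.1 or above. RPA1 fell by 0.38 ± 0.07 in HMLE-Twist (adjusted p = 0.00243) and stood at 0.06 ± 0.07 in HMLE-pBp (adjusted p = 0.573), a difference of -0.44 ± 0.10 (adjusted p = 0.0172, range over the alternatives 0.00478 to 0.0542). FPKM of RPA3, the smallest subunit, was 38.7, 42.3 and 39.7 under mock and 31.3, 33.7 and 33.8 with salinomycin in HMLE-Twist, and 22.2, 17.8 and 18.7 under mock and 25.2, 21.4 and 20.9 with salinomycin in HMLE-pBp. Its treated libraries lay below the mock in HMLE-Twist and overlapped the mock in HMLE-pBp. RPA3 stood at -0.28 ± 0.10 in HMLE-Twist (adjusted p = 0.0508) and 0.19 ± 0.10 in HMLE-pBp (adjusted p = 0.182), and the difference, -0.47 ± 0.14, passed (adjusted p = 0.0419, range over the alternatives 0.00417 to 0.105). With the replicate block both single-line tests passed as well (adjusted p = 0.00542 and 0.033, ranges over the alternatives 0.00542 to 0.16 and 0.033 to 0.524). RPA2 stood at -0.20 ± 0.08 in HMLE-Twist (adjusted p = 0.0749, and 0.0349 with the block, range over the alternatives 0.0261 to 0.201). Between the lines all 3 were higher in HMLE-Twist under mock, RPA1 by 1.1 ± 0.07, RPA3 by 1.01 ± 0.10 and RPA2 by 0.68 ± 0.08, and under salinomycin by 0.66 ± 0.07, 0.54 ± 0.10 and 0.44 ± 0.08.

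Of the 2 enzymes of Okazaki fragment joining, the flap nuclease FEN1 differed by line and the ligase LIG1 passed no test. FPKM of FEN1 was 97, 98 and 101 under mock and 92.3, 84.7 and 89.5 with salinomycin in HMLE-Twist, and 49.2, 54.5 and 56.2 under mock and 43.8, 56.2 and 52.2 with salinomycin in HMLE-pBp. The 6 HMLE-Twist libraries stood at 84.7 or above and the 6 HMLE-pBp libraries at 56.2 or below, a gap of 0.88 ± 0.09 under mock (adjusted p = 2.81e-06) and 0.80 ± 0.09 under salinomycin (adjusted p = 8.4e-06). With salinomycin FEN1 differed from mock by -0.15 ± 0.09 (HMLE-Twist) and -0.07 ± 0.09 (HMLE-pBp), and neither passed.

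Of the 4 enzymes of deoxynucleotide supply, TYMS and RRM1 fell in HMLE-Twist and TYMS fell in HMLE-pBp, while RRM2 and TK1 passed in neither line without the block. TYMS, thymidylate synthase, makes dTMP from dUMP. Its FPKM was 155, 145 and 132 under mock and 107, 106 and 103 with salinomycin in HMLE-Twist, and 69.2, 64.6 and 61.2 under mock and 53, 55.2 and 54 with salinomycin in HMLE-pBp. Each treated group lay below its mock group, and all 6 HMLE-Twist libraries lay above all 6 HMLE-pBp libraries. TYMS fell by 0.45 ± 0.07 in HMLE-Twist (adjusted p = 0.00115) and by 0.26 ± 0.07 in HMLE-pBp (adjusted p = 0.0303, range over the alternatives 0.0102 to 0.0968), and its line gap was 1.13 ± 0.07 under mock and 0.95 ± 0.07 under salinomycin. ENOSF1, on the opposite strand, shares 967 exon bases with TYMS in the reference annotation, and whether the counting used strand is not stated.

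RRM1 is the large subunit of ribonucleotide reductase, which makes deoxynucleotides from ribonucleotides, and RRM2 its small subunit. FPKM of RRM1 was 132, 123 and 126 under mock and 94.3, 107 and 97.3 with salinomycin in HMLE-Twist, and 66.2, 72.9 and 75.3 under mock and 74.6, 84.6 and 73.9 with salinomycin in HMLE-pBp. In HMLE-Twist the treated libraries lay below the mock libraries, and in HMLE-pBp the groups overlapped with the treated mean higher. RRM1 fell by 0.35 ± 0.08 in HMLE-Twist (adjusted p = 0.00748) and stood at 0.12 ± 0.08 in HMLE-pBp (adjusted p = 0.323), a difference of -0.47 ± 0.11 (adjusted p = 0.0217, range over the alternatives 0.00839 to 0.0612). FPKM of RRM2 was 137, 106 and 103 under mock and 116, 90.2 and 97.7 with salinomycin in HMLE-Twist, and 108, 105 and 105 under mock and 96.7, 105 and 100 with salinomycin in HMLE-pBp. All 4 groups of RRM2 overlapped, and it passed no test without the block. The salinomycin change was -0.18 ± 0.11 in HMLE-Twist (95% interval -0.43 to 0.07, adjusted p = 0.272, and 0.0479 with the block, range over the alternatives 0.0479 to 0.74) and -0.07 ± 0.11 in HMLE-pBp, and the line gap under mock was 0.11 ± 0.11 (adjusted p = 0.39).

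TK1, thymidine kinase of the salvage route to dTMP, had an FPKM of 129, 186 and 186 under mock and 176, 178 and 186 with salinomycin in HMLE-Twist, and 63.6, 52.8 and 56.4 under mock and 61.9, 67.3 and 68.1 with salinomycin in HMLE-pBp. All HMLE-Twist libraries stood at 129 or above and all HMLE-pBp libraries at 68.1 or below, and HMLE-Twist mock replicate 1 was the lowest of its 6. The line gap in TK1 was 1.5 ± 0.13 under mock (2.83-fold, adjusted p = 4.09e-07) and 1.44 ± 0.13 under salinomycin (2.71-fold, adjusted p = 8.18e-07). Its salinomycin change was 0.13 ± 0.13 and 0.19 ± 0.13 in HMLE-Twist and HMLE-pBp, and neither passed.

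E2F1, the transcription factor, had an FPKM of 13.3, 20.6 and 20.5 under mock and 17.8, 17 and 17.4 with salinomycin in HMLE-Twist, and 16.5, 15.6 and 16.6 under mock and 9.89, 11 and 11.4 with salinomycin in HMLE-pBp. The treated HMLE-pBp libraries were the lowest of the 12, and HMLE-Twist mock replicate 1 stood apart from the other 2 of its group. E2F1 fell by 0.56 ± 0.13 in HMLE-pBp (adjusted p = 0.0145, a call lost without that line's mock replicate 3 or salinomycin replicate 1, at up to 0.0584), the deepest fall in that line among those that passed, and stood at -0.03 ± 0.13 in HMLE-Twist (adjusted p = 0.903, range over the alternatives 0.0392 to 0.98, the lowest without HMLE-Twist mock replicate 1). The difference of 0.52 ± 0.19 did not pass (adjusted p = 0.0856), and passed with the replicate block (adjusted p = 0.0427, range over the alternatives 0.0377 to 0.169). The line gap in E2F1 was 0.12 ± 0.13 under mock and 0.65 ± 0.13 under salinomycin (adjusted p = 0.00106). UHRF1, which keeps DNA methylation in place behind the fork, stood at -0.39 ± 0.16 in HMLE-pBp (adjusted p = 0.112, and 0.0231 with the block, range over the alternatives 0.0222 to 0.376) and passed no other test.

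The question whether the lines responded differently was tested directly, as the response in HMLE-Twist minus that in HMLE-pBp. The response was lower in HMLE-Twist for 7 of the 40 genes (17.5%), against a background of 6.61%: CDC6, POLA2, PRIM1, PRIM2, RPA1, RPA3 and RRM1. None differed in the other direction, where 6.96% of all genes did. At an unadjusted p under 0.05, 3 did, and with voom weights none did. The shares of all genes at that p, or called with voom weights, are not reported here. In HMLE-pBp these 7 stood between -0.09 and 0.19, and none passed the test there. The median difference over the 40 was -0.08. With the replicate block 9 differed one way (background 15.5%) and 3 the other (background 16.9%), the added genes being RFC5 and POLD3, and CDC45, POLD1 and E2F1. The count of 7 moved when single libraries were left out, and 1 of the 7, PRIM2, passed under every alternative. Such fits have fewer libraries for every gene, and the share of all genes they call is not reported here. Without HMLE-Twist salinomycin replicates 1, 2 and 3 in turn the count was 2, 3 and 1, without HMLE-Twist mock replicate 2 it was 4, without HMLE-pBp mock replicates 2 and 3 it was 3 and 2, and without HMLE-pBp salinomycin replicates 1 and 2 it was 3 and 2.

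**Figure D4:**
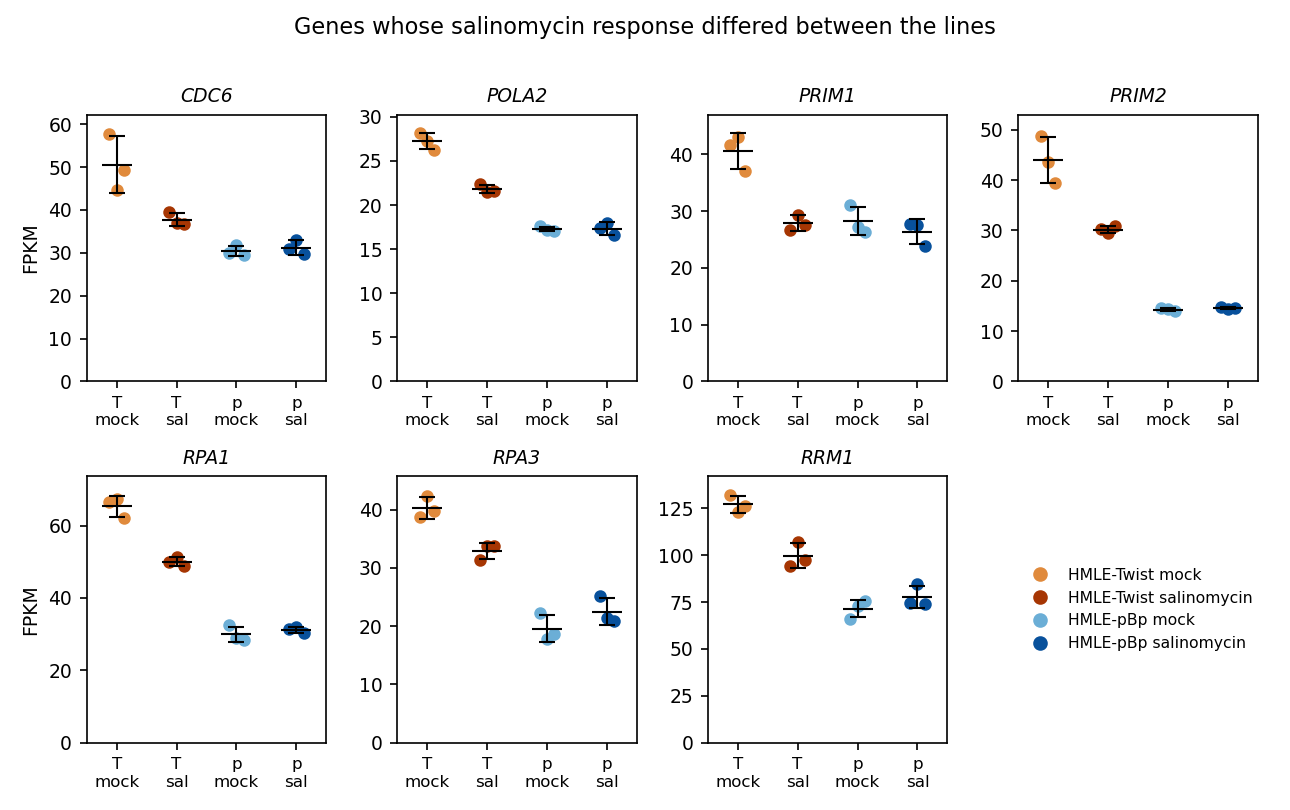
FPKM (axis from 0) of the 7 genes whose salinomycin response differed between the lines, with a point per library (n = 3 per group, T for HMLE-Twist and p for HMLE-pBp) and bars for the mean ± SD. In each panel the 3 HMLE-Twist mock points are highest and the HMLE-Twist salinomycin points lie below them, while the 2 HMLE-pBp groups overlap; mean PRIM2 goes from 43.9 to 30.2 in HMLE-Twist and from 14.3 to 14.5 in HMLE-pBp.

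The promoter words were set beside these calls as a description. Of the 18 genes with an E2F-type word 8 fell in HMLE-Twist and 6 in HMLE-pBp, with medians of -0.22 and -0.23. Of the 16 matched genes without a word 5 and 2 fell, with medians of -0.14 and -0.06. Over all genes tested 13.5% and 9.4% fell. Under mock, 11 of the 18 were higher in HMLE-Twist and 1 lower (median 0.37), and 12 of the 16 were higher (median 0.54). Under salinomycin 11 of each set were higher, with medians of 0.30 and 0.34. The backgrounds for higher were 36.1% under mock and 31.4% under salinomycin. Of the 7 genes whose response differed between the lines, 2 held a word (CDC6 and POLA2), 4 did not, and RPA3 had no entry.

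CDT1 and POLD1 stood out for their spread. CDT1 is the second loader of the MCM ring, and POLD1 the catalytic subunit of polymerase delta. FPKM of CDT1 was 12.3, 15.7 and 23.5 under mock and 21, 18.2 and 23.4 with salinomycin in HMLE-Twist, and 19.8, 17 and 23.8 under mock and 12.6, 16.7 and 23 with salinomycin in HMLE-pBp. FPKM of POLD1 was 16, 23.5 and 31.5 under mock and 23.3, 22.4 and 28.9 with salinomycin in HMLE-Twist, and 30, 29.8 and 36.4 under mock and 14.5, 21.5 and 29.2 with salinomycin in HMLE-pBp. In each of the 4 groups and for both genes the third replicate was the highest. Their SD within groups was larger than that of 95% (CDT1) and 95.8% (POLD1) of the genes tested. On the log2(FPKM + 1) scale replicate 3 exceeded the mean of replicates 1 and 2 by 0.25 to 0.71 for CDT1 and by 0.27 to 0.69 for POLD1. Of the 40 genes, 7 (CDT1, E2F1, FEN1, LIG1, MCM2, POLD1 and UHRF1) were higher in replicate 3 in all 4 groups and 14 were lower in all 4, and over all genes tested 21.9% were higher and 26.4% lower. POLD1 changed by -0.59 ± 0.25 with salinomycin in HMLE-pBp, an adjusted p of 0.116 without the replicate block and 0.0157 with it (range over the alternatives 0.00871 to 0.408), and its difference of responses was 0.70 ± 0.35 (adjusted p = 0.196, and 0.0351 with the block, range over the alternatives 0.0228 to 0.394). CDT1 passed no test in any comparison, with or without the block.

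**Figure D5:**
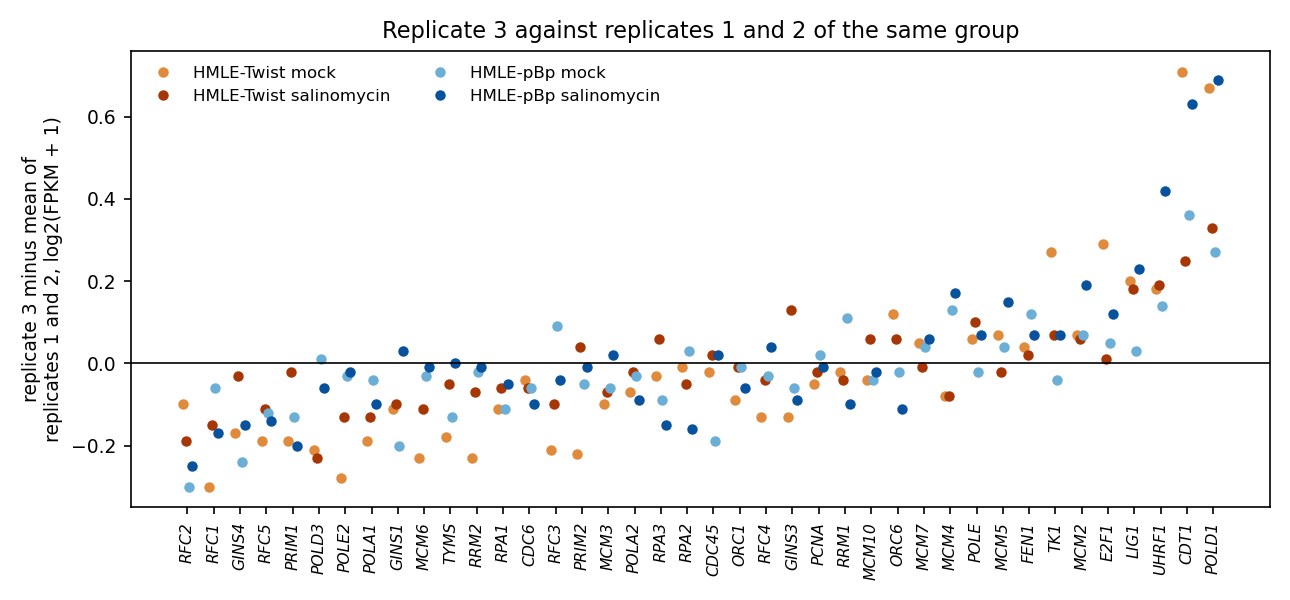
Replicate 3 minus the mean of replicates 1 and 2 on the log2(FPKM + 1) scale for each of the 40 genes (n = 1 difference per group, coloured by group), ordered by the mean of the 4. CDT1 and POLD1 lie at 0.25 or above in all 4 groups, while RFC1 and RFC2 lie below 0 in all 4.

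A further 57 genes of replication, nucleotide supply, chromatin assembly and the E2F family were listed beside the 40, and all 57 were tested. In HMLE-Twist 18 fell (31.6%, background 13.5%) and 6 rose (10.5%, background 12.9%), with a median of -0.19. In HMLE-pBp 12 fell (21.1%, background 9.4%) and 6 rose (10.5%, background 9.72%), with a median of -0.12. The shares that rose were close to those of all genes. MCMBP, a protein that binds MCM subunits, rose the most in HMLE-pBp, and in HMLE-Twist it was level with CTPS1 at 0.86. FPKM of MCMBP was 58.4, 46.4 and 48.2 under mock and 97.3, 91.5 and 89.8 with salinomycin in HMLE-Twist. In HMLE-pBp it was 35.3, 34.8 and 37 under mock and 73.1, 71.7 and 66.3 with salinomycin. Every treated library lay above every mock library of its line, and MCMBP changed by 0.86 ± 0.09 in HMLE-Twist (adjusted p = 5.21e-05) and 0.96 ± 0.09 in HMLE-pBp (adjusted p = 4.91e-05). CTPS1, which makes CTP, rose too, by 0.86 ± 0.15 in HMLE-Twist (adjusted p = 0.00144) and 0.50 ± 0.15 in HMLE-pBp (adjusted p = 0.0347, range over the alternatives 0.00202 to 0.107). GMNN, the licensing inhibitor geminin, fell by 0.65 ± 0.09 in HMLE-Twist (adjusted p = 0.000317) and by 0.30 ± 0.09 in HMLE-pBp (adjusted p = 0.037, range over the alternatives 0.0113 to 0.136).

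In HMLE-pBp the other large changes of that list were POLD4, a small subunit of polymerase delta, at 0.89 ± 0.12 (adjusted p = 0.000699), E2F2 at -0.59 ± 0.13 (adjusted p = 0.01) and RRM2B, the small ribonucleotide reductase subunit induced by p53, at 0.51 ± 0.10 (adjusted p = 0.00657). In HMLE-Twist POLD4 stood at 0.43 ± 0.12 (adjusted p = 0.0221, range over the alternatives 0.00559 to 0.0853), E2F2 at -0.06 ± 0.13 (adjusted p = 0.777) and RRM2B at -0.35 ± 0.10 (adjusted p = 0.0265, range over the alternatives 0.00639 to 0.0967). The difference of responses passed for 7 of the 57, 4 higher in HMLE-Twist (7% of the list, background 6.96%) and 3 lower (5.3%, background 6.61%), shares close to those of all genes. Under mock 31 of the 57 were higher in HMLE-Twist (54.4%, background 36.1%) and 11 lower (19.3%, background 37.2%), with a median of 0.34. E2F5, a repressor of the E2F family, stood at -2.16 ± 0.11 (adjusted p = 2.64e-09), while ASF1B, a histone chaperone of S phase, was 1.26 ± 0.11 higher (adjusted p = 5.44e-07) and RNASEH2A, a subunit of the nuclease that removes ribonucleotides from DNA, 1.22 ± 0.09 higher (adjusted p = 1.6e-07).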

How the data were processed

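Messenger RNA was measured in 12 libraries, 3 for each of 4 groups, prepared with a stranded kit from 750 ng of RNA and read as 75 cycles from each end, per the labels. The authors deposited 1 table per group: FPKM for the mock groups and, from the values, shrunk log2 values for the salinomycin groups, each table normalized within itself. The submitters' processing notes name DESeq2 version 1.1.0 and the build hg19. For the aligner, the counting program and its use of strand: not given in the sources used here.

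Whole reads were recovered from the steps of the mock FPKM and by inverting the shrinkage of the log2 values, and of the 40 genes' salinomycin values 98.3% in HMLE-Twist, and 92.5% in the other line, fell within 0.1 of a whole read. The 378 genes with reads whose multiple was not settled were left out, none of them among the 40. FPKM was rebuilt with median-of-ratios size factors over the 12 libraries. Genes that reached an FPKM of 1 in 3 or more libraries entered 1 limma fit (limma 3.58.1 in R 4.3.3, eBayes with a trend) of the 4 groups on log2(FPKM + 1). Fold changes and SE are on that scale, which understates changes of low genes, and p-values were Benjamini-Hochberg adjusted over all genes tested. The fit was tested on simulated data.

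Within each line, same-numbered mock and salinomycin libraries deviated together (correlation 0.216 to 0.718 over 6 pairs). The numbers were therefore taken to pair samples there, and a fit with that block was run. Across the lines same-numbered libraries correlated at 0.043 to 0.662 over 12 pairs, and those with unlike numbers at -0.539 to 0.266 over 24. The line comparisons given above carry no block. The fit without the block is the one reported unless stated. P-values measure the spread between these replicates. The 40 genes, the other lists and the rules were chosen with earlier results of these data known. Genes were named as follows: the 8 largest changes among those passing in each comparison, all passing the difference, and MCM2, PCNA, RRM2, TYMS, E2F1 and CDC6 throughout; of the further list, the 4 largest, of which 1 is not reported here. In the reference annotation (GENCODE 29) 9 of the 40 overlap an opposite-strand gene that the expression data also hold. FEN1 and PRIM1 also overlap a same-strand gene of those data, FADS2 (49 exon bases) and NACA (33 exon bases). GINS3, GINS4, LIG1 and RRM1 overlap only opposite-strand genes that those data do not hold. Of the 40, 7 have pseudogenes whose reads the counting could split.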

Additional observations from a re-analysis of the deposited data

Results flagged for a closer look

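The salinomycin response differed between the 2 lines, by the interaction term of the limma fit, for 7 of the 40 genes. The response in HMLE-Twist minus that in HMLE-pBp, on the log2(FPKM + 1) scale, was -0.55 for PRIM2, -0.47 for RPA3, -0.47 for RRM1, -0.44 for RPA1, -0.44 for CDC6, -0.43 for PRIM1 and -0.31 for POLA2. Each of the 7 was also higher in HMLE-Twist than in HMLE-pBp under mock, and the comparison shares those mock libraries with the response. PRIM2 and RPA1 had the lowest adjusted p of the 7, 0.00955 and 0.0172, and POLA2 and PRIM1 the highest, 0.0475 for both.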

How the results depend on the processing

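The count tests planned on the recovered reads (edgeR and DESeq2) were not run. The deposited units are FPKM and log2 values, and limma with voom weights was run on the recovered reads instead. That fit, and a block over all groups, were added after seeing the data. Across the other settings no gene changed direction among calls. Over the 40 genes, 5 comparisons and all alternatives, 4059 values kept their side of the threshold, 129 lost a call and 92 gained one. Calls that passed under every alternative numbered 10 of 14 (salinomycin in HMLE-Twist), 2 of 9 (HMLE-pBp), 1 of 7 (difference), 28 of 30 (lines under mock) and 21 of 27 (lines under salinomycin).

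With the replicate block within each line, 19 genes fell in HMLE-Twist, 13 fell and 2 rose in HMLE-pBp, and the difference passed for 9 lower and 3 higher. The block removed no call. With the replicate block over all groups, 15 fell and 1 rose in HMLE-pBp, 4 passed the difference as higher, and 2 were lower in HMLE-Twist under mock. With no filter on low values 4 genes passed the difference as lower. The shares of all genes called with the block over all groups, or with no filter, are not reported here. Scaling by total reads left 0 genes lower in HMLE-Twist under mock and gave medians of 0.69 (mock) and 0.47 (salinomycin) between the lines.

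Leaving out each library in turn gave 10 to 16 falls in HMLE-Twist (median -0.22 to -0.15). In HMLE-pBp it gave 2 to 11 falls and 0 to 1 rises (median -0.15 to -0.05), and for the difference 1 to 8 lower and 0 to 1 higher (median -0.13 to -0.05). Between the lines it gave 28 to 30 higher and 1 to 2 lower under mock (median 0.47 to 0.58). Under salinomycin it gave 23 to 29 higher (median 0.31 to 0.37). The share of all genes called in these smaller fits is not reported here.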
